A study of Mus musculus with 10 samples.

Results

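The genes described are 10 regulators of the G1 phase of the cell cycle in mouse intestinal epithelium: the CIP/KIP inhibitors Cdkn1a (p21) and Cdkn1b (p27), the INK4 inhibitors Cdkn2a, Cdkn2b, Cdkn2c and Cdkn2d, the cyclins Ccnd1 and Ccnd2, the tumour suppressor Trp53 (p53) and its inhibitor Mdm2. They form a list by name and function, with a rule that uses no measured value, and were read as UMI counts (unique molecular identifiers, 1 for each captured transcript molecule) in every library and annotated class of cells. They are 10 of the 31053 genes counted and 10 of the 16037 genes that passed the filter on low counts in the organoid libraries.

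The series holds 10 droplet single-cell RNA-seq libraries of mouse epithelium, 8 from organoids started from crypts of the proximal small intestine and 2 from colonic crypts. ENR-organoids (3 libraries) grew in the conventional medium, which holds R-Spondin 1, Noggin and EGF. Hyper-organoids (3 libraries) grew with EPZ6438, VPA, LDN193189, Pexmetinib, GSK-3 Inhibitor XV, FGF2, EGF and R-Spondin 1 conditioned medium, and -VE-organoids (2 libraries) grew in that medium without VPA, an inhibitor of histone deacetylases, and without EPZ6438, an inhibitor of the Polycomb methyltransferase EZH2. Of the colonic libraries, 1 is from untreated crypts (normal) and 1 from crypts after DSS, dextran sulfate sodium, which injures the colonic epithelium. All organoid groups share EGF and an R-Spondin 1 source, and their crypts came from mice of 6 to 12 weeks. The colitis model used female mice of 8 weeks. C57BL/6 and Lgr5-EGFP-IRES-creERT2 mice are named in the methods, but the strain behind each library is not given in the sources used here. Replicates 1, 2 and 3 carry the library codes 2, 6 and C, called culture series here. The labels do not say whether series 2 and 6 were separate cultures. The ENR-organoids were at passages 2, 7 and 3, the -VE-organoids at passages 1 and 6, and the Hyper-organoids at passages 1, 6 and 3. Hyper- and -VE-organoids of series 2 and 6 were started from ENR-organoids, whereas both libraries of series C were started from primary crypts. No label ties a library to a separate animal, so p-values measure only the spread between these libraries.

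In G1, D cyclins switch on CDK4 and CDK6, which inactivate the retinoblastoma protein and let the cell enter S phase. INK4 proteins block CDK4 and CDK6, and CIP/KIP proteins bind cyclin-CDK complexes more widely. Cdkn2a also encodes p19Arf, which holds MDM2 away from p53, and p53 in turn transcribes Cdkn1a and Mdm2. The Cdkn2a-Cdkn2b locus is a textbook target of Polycomb repression. In the intestine, the crypt base and the transit amplifying zone cycle rapidly, while differentiated cells on the villus have left the cycle.

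The organoid libraries held 1983 to 4293 kept cells each (22139 in all), with medians of 38173 to 50651 UMIs per cell and 89124015 to 170019527 UMIs in all. The colonic libraries held 1132 and 1933 kept cells with medians of 16051 to 18374 UMIs. At most 5 cell barcodes were shared by any of the 45 pairs of libraries. Epithelial markers summed to 4000 to 5120 CPM (UMIs scaled to a fixed library total) in every organoid library. Defining genes of other cells were close to the detection floor there: 7 leukocyte genes summed to 0.696 to 0.895 CPM in ENR, 0.876 to 0.928 in -VE and 1.01 to 2.14 in Hyper libraries, 6 stromal genes to 0.359 to 0.578, 0.276 to 0.410 and 0.820 to 1.08, and 4 endothelial genes to 0.337 to 0.514, 0.329 to 0.443 and 1.01 to 1.56, with the leukocyte gene Ptprc at 4 UMIs in ENR replicate 2 and at 0 in all other organoid libraries. These sums were higher in Hyper-organoids, and their part in the results below was not tested. Among the annotated classes, all 4 defining markers were highest in their own class for transit amplifying, Paneth, enterocyte and enteroendocrine cells, 3 of 4 for enterocyte progenitors, and 2 of 4 for stem and goblet cells.

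Hyper- and ENR-organoids were compared first, which asks what the regenerative medium changes in G1 control. Cdkn2a went from near absence to a readily detected transcript, Cdkn2b fell, and the remaining inhibitors split: Cdkn1a, Cdkn2c and Cdkn2d rose and Cdkn1b fell. Ccnd1 and Trp53 fell, Mdm2 rose, and the difference of Ccnd2 did not pass. Levels below are CPM after TMM scaling of library sizes (TMM CPM) over all kept cells of a library. The counts come from 3' ends and hold 1 UMI per molecule, so they were not divided by gene length. In such sums, a change in the share of a cell type cannot be told apart from a change of RNA per cell.

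Cdkn2a (chr4, 89274471 to 89294653, minus strand, GRCm38) has separate start sites for its products, p19Arf from the upstream first exon and p16Ink4a from the downstream first exon. The transcripts share their 3' exons, so the gene counts cannot separate them. Cdkn2b (chr4, 89306299 to 89311039, minus strand), which encodes p15Ink4b, is its neighbour, with 16.4 kb from start to start. The sequences before these starts are printed because both genes lie side by side and moved in opposite directions in the sum over all cells of Hyper- against ENR-organoids, though not in every cell class. They are from RefSeq (GRCm38.p6), 5′ to 3′ on the gene's strand, stop before the annotated exons of the gene, and have CG dinucleotides in capitals.
Cdkn2a upstream start (p19Arf), chr4:89294654-89294869: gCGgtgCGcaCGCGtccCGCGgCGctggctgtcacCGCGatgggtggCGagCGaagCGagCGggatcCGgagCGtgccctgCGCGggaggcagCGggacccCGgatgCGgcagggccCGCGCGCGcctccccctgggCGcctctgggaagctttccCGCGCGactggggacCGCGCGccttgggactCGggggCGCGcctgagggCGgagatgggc
Cdkn2a downstream start (p16Ink4a), chr4:89282193-89282442: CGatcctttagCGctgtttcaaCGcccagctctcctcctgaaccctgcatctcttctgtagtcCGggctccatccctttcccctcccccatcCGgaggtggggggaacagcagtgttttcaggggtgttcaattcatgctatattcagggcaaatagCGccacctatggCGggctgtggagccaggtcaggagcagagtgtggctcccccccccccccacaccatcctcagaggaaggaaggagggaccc
Cdkn2b start, chr4:89311040-89311282: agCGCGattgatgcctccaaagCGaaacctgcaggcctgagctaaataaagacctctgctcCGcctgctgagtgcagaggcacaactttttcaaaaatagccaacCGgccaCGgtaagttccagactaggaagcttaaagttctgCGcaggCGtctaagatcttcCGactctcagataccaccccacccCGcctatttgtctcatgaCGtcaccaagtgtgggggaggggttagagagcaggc
In windows of 250 bases before each RefSeq start, the upstream Cdkn2a start held 40 CG dinucleotides, a number reached by 1.31% of 32851 promoters, the downstream start held 7 (46.3%) and the Cdkn2b start held 12 (33.5%), against a median of 6 over all promoters. CG reads the same on both strands and was searched without overlap. Promoters were found for 8 of the 10 genes.

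In ENR-organoids, Cdkn2a was at 0.248, 0.200 and 0.418 TMM CPM in replicates 1, 2 and 3, from 24, 24 and 35 UMIs. In -VE-organoids, Cdkn2a was at 0.197 and 0.134 TMM CPM, from 23 and 22 UMIs. In Hyper-organoids, Cdkn2a was at 13.0, 5.37 and 26.8 TMM CPM, from 1923, 809 and 2542 UMIs. Every Hyper library lay far above every ENR and -VE library, and the Hyper libraries themselves spanned a wide range, with replicate 2 lowest and replicate 3 highest. By edgeR, Cdkn2a was 5.73 higher on the log2 scale in Hyper- than in ENR-organoids (SE 0.65, adjusted p = 0.00015) and 6.53 higher than in -VE-organoids (SE 0.81, adjusted p = 0.00049). Without Hyper replicate 3 these differences were 5.02 and 5.82. As plain UMI sums, the Hyper to ENR ratio was 53.0 (95% exact interval 42.7 to 66.6, counting error only). The -VE libraries were at log2 -0.79 against ENR (SE 0.84, adjusted p = 0.61), so this comparison bounds the difference only loosely. Of the UMIs of Cdkn2a, Cdkn2b, Cdkn2c and Cdkn2d together, Cdkn2a made up 21.3%, 10.6% and 38.6% in the Hyper libraries. It made up 0.338% to 0.760% in ENR and 0.440% to 0.523% in -VE libraries. Any p19Arf transcripts are included, so these are not shares of p16Ink4a.

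Cdkn2b, the other gene of the locus, was at 26.2, 32.3 and 29.5 TMM CPM in ENR-organoids. It was at 14.2 and 8.15 TMM CPM in -VE-organoids and at 10.3, 8.42 and 11.2 in Hyper-organoids. Both groups lay below all ENR libraries, and they overlapped each other. Cdkn2b was -1.56 on the log2 scale in Hyper against ENR (SE 0.20, edgeR adjusted p = 0.00031) and -1.40 in -VE against ENR (SE 0.23, adjusted p = 0.013). Hyper against -VE was at -0.16 (SE 0.22, adjusted p = 0.58). The fall in -VE missed the threshold without ENR replicate 2 (-1.32) or without -VE replicate 2 (-1.06), at an adjusted p of 0.052 in each case. The sum over all cells is weighted by class size. With stem, transit amplifying, goblet and enteroendocrine cells weighted equally, Cdkn2b was at log2 0.16, from means of 22.1 CPM in Hyper- and 19.8 in ENR-organoids. In -VE against ENR it was then at -0.54. The part of the class mix in either fall was not tested.

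Cdkn2c encodes p18Ink4c. Its levels were 15.5, 16.4 and 13.6 TMM CPM in ENR, 13.5 and 12.7 in -VE and 19.1, 20.5 and 18.1 in Hyper libraries. All Hyper libraries were above all others. Cdkn2c rose by log2 0.34 against ENR (SE 0.08, edgeR adjusted p = 0.0082) and by 0.55 against -VE (SE 0.09, adjusted p = 0.0021).

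Cdkn2d encodes p19Ink4d. It was at 10.3, 10.4 and 11.4 TMM CPM in ENR, 9.74 and 9.38 in -VE and 19.0, 16.3 and 13.3 in Hyper libraries, again with no overlap between Hyper and the rest. The rise was log2 0.59 against ENR (SE 0.12, edgeR adjusted p = 0.0036) and 0.76 against -VE (SE 0.14, adjusted p = 0.0030).

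Cdkn1a encodes p21, the classical p53 target that stops the cycle. It was at 54.7, 63.5 and 67.1 TMM CPM in ENR, 57.5 and 36.5 in -VE and 95.3, 82.0 and 116 in Hyper libraries. The Hyper libraries were the highest, while -VE replicate 1 fell within the ENR range. Cdkn1a rose by log2 0.66 against ENR (SE 0.18, edgeR adjusted p = 0.014) and by 1.06 against -VE (SE 0.21, adjusted p = 0.0043). Without ENR replicate 1 the first difference was 0.58 at an adjusted p of 0.055. The second fell under 2-fold without -VE replicate 2 (0.78) or without Hyper replicate 3 (0.92), with adjusted p values of 0.027 and 0.011. It was also under 2-fold with the culture series as a block (0.97, adjusted p = 0.0053), with all barcodes (0.99, adjusted p = 0.0052) and at equal depth per cell (0.91, adjusted p = 0.010), so the call did not hold in these fits. In -VE against ENR Cdkn1a was at -0.40 (SE 0.21, adjusted p = 0.29).

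Cdkn1b encodes the CIP/KIP inhibitor p27. It was at 43.7, 42.3 and 41.1 TMM CPM in ENR, 38.4 and 35.8 in -VE and 30.7, 33.4 and 35.6 in Hyper libraries. Hyper libraries lay below all others, by a small margin from -VE replicate 2. Cdkn1b was at log2 -0.35 against ENR (SE 0.06, edgeR adjusted p = 0.0020) and at -0.16 against -VE (SE 0.07, adjusted p = 0.10), and the second passed only without Hyper replicate 3 (-0.20, adjusted p = 0.044).

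Ccnd1 (cyclin D1), a mitogen and Wnt target, was at 139, 146 and 154 TMM CPM in ENR, 128 and 145 in -VE and 103, 101 and 116 in Hyper libraries. Hyper libraries were the lowest, and ENR and -VE overlapped. Ccnd1 fell by 0.46 on the log2 scale against ENR (SE 0.08, edgeR adjusted p = 0.0012) and by 0.36 against -VE (SE 0.08, adjusted p = 0.0093). Without -VE replicate 2 the second was -0.25 at an adjusted p of 0.11.

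Ccnd2 (cyclin D2) was the most abundant member, at 566, 592 and 663 TMM CPM in ENR, 473 and 368 in -VE and 493, 557 and 667 in Hyper libraries. ENR and Hyper libraries overlapped over most of their range, and both -VE libraries were below them. Ccnd2 was at log2 -0.08 in Hyper against ENR (SE 0.13, edgeR adjusted p = 0.61), a sign that turned under several settings, and at 0.44 against -VE (SE 0.15, adjusted p = 0.037). The latter missed the threshold when ENR replicate 1 or 2, -VE replicate 2 or Hyper replicate 2 or 3 was left out, with values of 0.29 to 0.47. In -VE against ENR Ccnd2 was at -0.53 (SE 0.15, adjusted p = 0.070), and it passed without Hyper replicate 1 or Hyper replicate 3 in the shared fit (adjusted p = 0.041 and 0.044). The ratio of Ccnd2 to Ccnd1 UMIs was 4.08, 4.04 and 4.31 in ENR, 3.70 and 2.54 in -VE and 4.8, 5.51 and 5.76 in Hyper libraries, so the Hyper libraries had the highest share of cyclin D2.

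Trp53 was at 146, 157 and 141 TMM CPM in ENR, 156 and 157 in -VE and 128, 136 and 119 in Hyper libraries. Hyper libraries were the lowest in each case. Trp53 fell by 0.22 on the log2 scale against ENR (SE 0.06, edgeR adjusted p = 0.018) and by 0.30 against -VE (SE 0.07, adjusted p = 0.0096). The first missed the threshold without ENR replicate 2 (-0.17, adjusted p = 0.075) or Hyper replicate 3 (-0.17, adjusted p = 0.055), and the second without -VE replicate 2 (-0.27, adjusted p = 0.073).

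Mdm2 was at 21.1, 21.3 and 21.3 TMM CPM in ENR, 22.1 and 20.3 in -VE and 24.6, 22.9 and 27.2 in Hyper libraries. The Hyper libraries were the highest, by a narrow margin for replicate 2. Mdm2 rose by log2 0.23 against ENR (SE 0.07, edgeR adjusted p = 0.022) and by 0.23 against -VE (SE 0.08, adjusted p = 0.039). The first missed the threshold without ENR replicate 1 (adjusted p = 0.060) or 2 (0.061), and the second when any library other than Hyper replicate 2 or ENR replicate 3 was left out, with adjusted p values of 0.051 to 0.20.

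**Figure D1:**
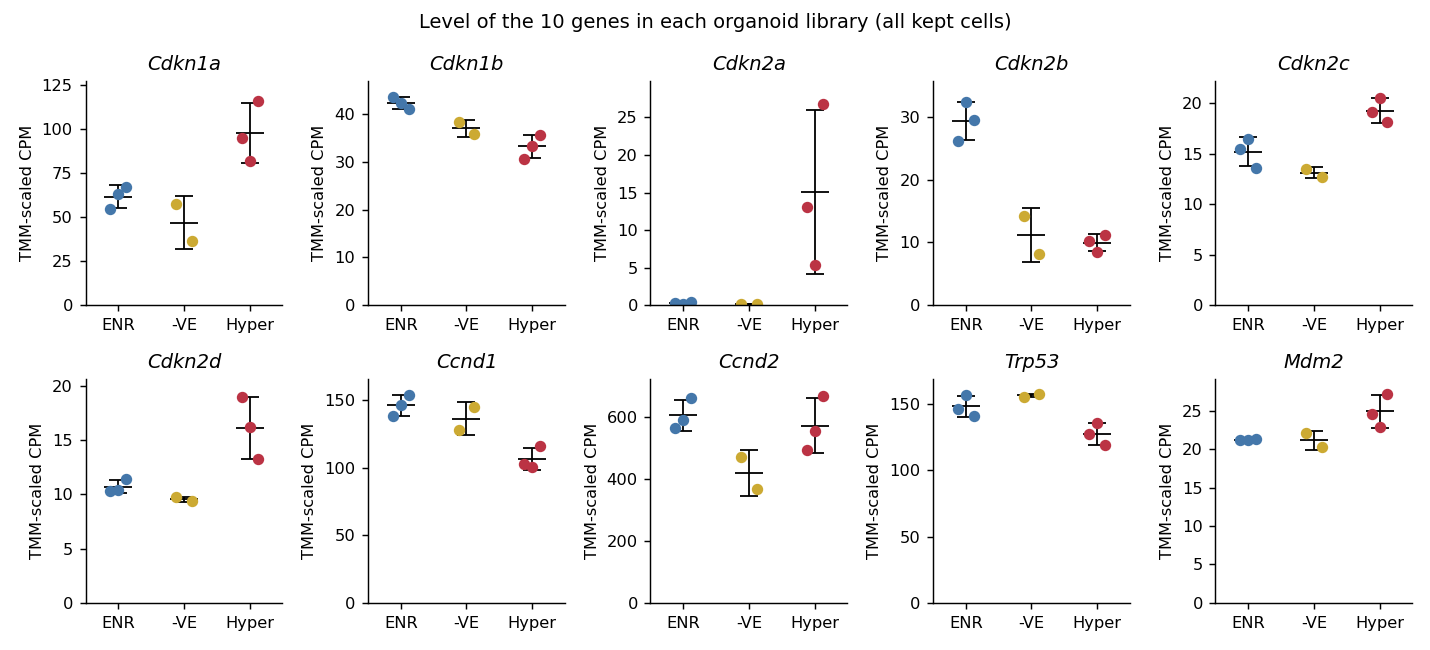
Each panel plots 1 gene in TMM-scaled CPM on a linear axis from 0, with each point a library and the bars the group mean ± SD (ENR n = 3, -VE n = 2, Hyper n = 3). Cdkn2a lies near 0 outside the Hyper libraries, where it spans 5.37 to 26.8, and Cdkn2b is highest in ENR libraries.

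Counted together, 9 of the 10 members passed an adjusted p of 0.05 in Hyper against ENR, where 56.8% of all genes tested did, and 2 (Cdkn2a up, Cdkn2b down) were also changed at least 2-fold, the rule used for a call, against 22.9% of all genes. Against -VE, 8 members passed (47.6% of all genes) and 2 were called, Cdkn2a and Cdkn1a, both up (18.6%), but only Cdkn2a with the culture series as a block. In -VE against ENR, 1 member passed and was called, Cdkn2b, against 7.88% and 2.55% of all genes. By DESeq2 2 members passed there, where 2233 of 16037 genes did. Also 2 passed without a filter on low counts (1202 of 23127 genes) and with only these 2 groups fitted (1672 of 14778 genes). The 9 members of the first comparison became 7 over all barcodes, without Trp53 (adjusted p = 0.14) and Cdkn1a (0.054), and 8 without Trp53 after thinning (0.059) or with a filter of 10 CPM in 2 libraries (0.16). They also became 7 without ENR replicate 1, with Mdm2 (0.060) and Cdkn1a (0.055) lost, and without ENR replicate 2, with Mdm2 (0.061) and Trp53 (0.075) lost. The 8 members of the second became 6 with only the 2 groups in the fit, without Ccnd2 (0.071) and Mdm2 (0.094), 6 with the filter of 10 CPM, without Ccnd1 (0.065) and Trp53 (0.059), and 4 without -VE replicate 2, where Ccnd1, Ccnd2, Mdm2 and Trp53 missed (0.073 to 0.24). These comparisons share their libraries. The libraries of the groups did not overlap for 9 members in Hyper against ENR (64.4% of all genes), for 9 in Hyper against -VE (67.0%) and for 6 in -VE against ENR (45.7%). The median log2 difference over the members was 0.073, 0.34 and -0.20 in the order given, beside -0.0073, 0.014 and 0.0041 over all genes tested.

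Next, the groups were compared within annotated classes. The classes keep their names across groups but need not hold the same cells: in the study's clustering, the stem and transit amplifying cells of Hyper-organoids formed clusters apart from those of ENR-organoids, and the annotation used here gives classes without cluster numbers. Of the stem markers, Lgr5 and Cd44 were highest in the stem class, and Ascl2 and Olfm4 in transit amplifying cells. In stem cells 3 members were called in Hyper against ENR (18.0% of all genes tested in the class) and 2 against -VE (16.5%). In transit amplifying cells the numbers were 2 (20.9%) and 3 (17.8%), in goblet cells 2 (13.3%) and 1 (9.87%), and in enteroendocrine cells 3 (7.40%) and 2 (4.01%). Cdkn2a is 1 of each of these numbers. Within stem, goblet and enteroendocrine cells, however, it passed the filter on low counts through the Hyper libraries alone. In transit amplifying cells it passed through these and 1 ENR library. The calls, fitted folds and p values of Cdkn2a within classes are therefore not read, and only the rest of each number stands. In -VE against ENR no member was called in any of these classes, where 0.503%, 1.03%, 1.14% and 0.190% of all genes were. At an unadjusted p under 0.05, edgeR gave 4, 3, 2 and 2 members in that comparison. Over all genes it gave 2465 of 13920, 2798 of 14553, 2125 of 11714 and 1413 of 11050. DESeq2 also called 0 members in each class. In transit amplifying cells, however, 3 members passed its adjusted p, where 1138 of 14553 genes did.

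For Cdkn2a the UMIs themselves are given by class, with their pooled ratios as a description. In stem cells, ENR libraries held 0, 3 and 1 Cdkn2a UMIs, -VE libraries 7 and 1, and Hyper libraries 728, 234 and 1056. The pooled ratio of Hyper to ENR stem cells was 120 (exact interval 46.9 to 442, counting error only). In enteroendocrine cells, 1, 0 and 0 UMIs stood against 36, 44 and 95, a ratio of 96.2 (17.0 to 3820). Transit amplifying cells gave 17 against 2129 UMIs, a ratio of 84.0 (52.4 to 145), and goblet cells 6 against 311, a ratio of 36.3 (16.5 to 99.8). In Paneth cells, ENR libraries held 0 Cdkn2a UMIs and Hyper libraries 9, with too few Hyper cells for a test.

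The share of cells with a Cdkn2a UMI was 28.9%, 8.94% and 29.1% in the Hyper libraries, 0.868% to 1.15% in ENR and 0.489% and 0.921% in -VE libraries, with median depths of 48042, 38999 and 44601 UMIs in the Hyper libraries. With each cell thinned to 10000 UMIs, the Cdkn2a shares were 12% (exact 95% interval 10.8 to 13.2), 4.20% (3.55 to 4.92) and 17.7% (16 to 19.5) in Hyper libraries and at most 0.316% in the others. Hyper replicate 3 had the highest share of cells with a Cdkn2a UMI at equal depth. No class known to lack Cdkn2a gave a background share within the Hyper libraries, so the part of free RNA in these shares was not tested. Within Hyper-organoids, thinned shares in stem cells were 12%, 3.35% and 17.8%, close to those of transit amplifying cells at 12.4%, 3.63% and 13.5%. Goblet cells gave 9.09%, 5.24% and 21%, and enteroendocrine cells 9.89%, 13.0% and 25.6%. The class annotated as enterocytes was small in Hyper-organoids (7, 58 and 21 cells), and in replicates 2 and 3 it held thinned Cdkn2a shares of 17.5% (8.75 to 29.9) and 72.2% (46.5 to 90.3). The revival stem class, a Clu-expressing population that appears after injury, reached 20 cells in Hyper replicate 3 only, with 26 cells. Of these 80.8% (60.6 to 93.4) had a Cdkn2a UMI before thinning, against 29.1% over all cells of that library. Their level was 185 CPM, from 280 UMIs. Over all libraries this class held 324 Cdkn2a UMIs in Hyper- and 3 in -VE-organoids. In stem, transit amplifying, goblet, enteroendocrine and enterocyte cells of ENR libraries, thinned Cdkn2a shares ran from 0% to 0.990%, and no ENR cell was in the revival stem class.

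**Figure D2:**
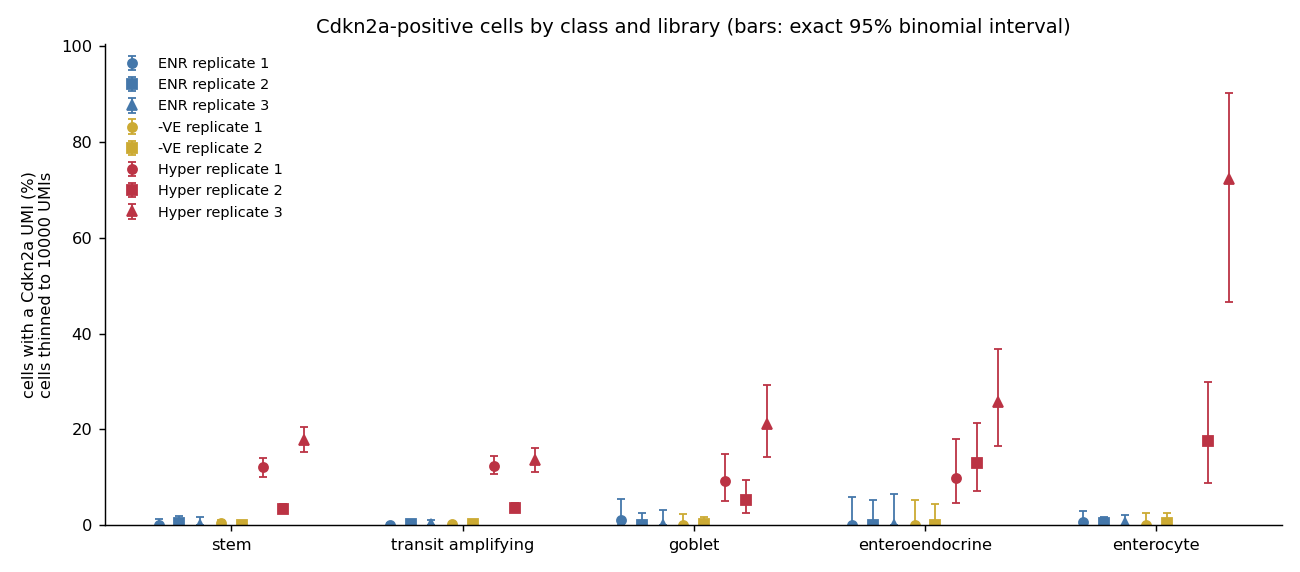
The vertical axis gives the percent of cells with a Cdkn2a UMI after thinning to 10000 UMIs, by class on the horizontal axis, 1 point per library with at least 20 cells of the class and bars as exact 95% binomial intervals. Hyper libraries stand above the ENR and -VE libraries of the same class, with replicate 2 lowest in stem, transit amplifying and goblet cells.

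Cdkn1a rose in stem cells from 30.2, 33.2 and 28.3 TMM CPM in ENR to 89.1, 70.4 and 98.9 in Hyper libraries, with -VE libraries at 37.5 and 23.6. The log2 difference was 1.49 against ENR (SE 0.18, edgeR adjusted p = 0.00016) and 1.5 against -VE (SE 0.20, adjusted p = 0.00035). In transit amplifying cells Cdkn1a rose by 1.08 (SE 0.14, adjusted p = 0.00021) and 1.15 (SE 0.15, adjusted p = 0.00049), the latter at 0.87 without -VE replicate 2. Both crypt classes thus showed larger log2 differences against ENR than the sum over all cells. In goblet cells Cdkn1a rose by 0.94 against -VE (SE 0.17, adjusted p = 0.0022), and against ENR it was at 0.42 (SE 0.15, adjusted p = 0.053, or 0.43 at 0.0064 with the culture series as a block). The rise against ENR was larger in stem than in transit amplifying cells by 0.40 (SE 0.074, edgeR interaction test, adjusted p = 0.00091) and smaller in goblet than in transit amplifying cells (difference -0.62, SE 0.10, adjusted p = 0.00069). Against -VE the stem difference was 0.35 (SE 0.069, adjusted p = 0.0019), and the goblet difference did not pass (-0.17, SE 0.11, adjusted p = 0.46). The stem difference against -VE was 0.29 without -VE replicate 2, the lowest of the fits that left out a library. That fit holds 1 -VE library, so passing the threshold is not read from it.

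Cdkn2d rose in stem cells from 1.49, 1.41 and 0.695 TMM CPM in ENR (19, 17 and 5 UMIs) to 5.41, 4.67 and 3.40 in Hyper libraries. The log2 difference was 1.84 (SE 0.28, edgeR adjusted p = 0.00061), and against -VE it was 0.85 (SE 0.26, adjusted p = 0.025), which missed the threshold without -VE replicate 1, -VE replicate 2 or Hyper replicate 2 (adjusted p = 0.089, 0.15 and 0.055) and reached 2-fold without Hyper replicate 3 (1.02) or with the culture series as a block (1.03). In transit amplifying cells, which hold far more Cdkn2d, the differences were 0.82 (SE 0.11, adjusted p = 0.00027) and 1.03 (SE 0.12, adjusted p = 0.00025), the latter under 2-fold without Hyper replicate 1 (0.92) or -VE replicate 2 (0.99). The effect against ENR was larger in stem than in transit amplifying cells by 1.00 (SE 0.22, interaction adjusted p = 0.0040). Against -VE that difference had the opposite sign and did not pass (-0.16, SE 0.15, adjusted p = 0.56). In goblet cells Cdkn2d rose by 0.88 against ENR (SE 0.16, adjusted p = 0.0013) and by 0.54 against -VE (SE 0.15, adjusted p = 0.027).

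Cdkn2b moved differently from class to class. In stem cells it was at 5.96, 6.78 and 3.75 TMM CPM in ENR and at 11.2, 5.73 and 9.52 in Hyper libraries, ranges that overlap, with log2 0.64 (SE 0.34, edgeR adjusted p = 0.14), or 0.90 at an adjusted p of 0.042 without Hyper replicate 2. Against -VE the stem difference was 0.93 (SE 0.36, adjusted p = 0.061), which passed with a block for culture series (0.97, adjusted p = 0.022) and without -VE replicate 1 (1.52, adjusted p = 0.023) or Hyper replicate 2 (1.19, adjusted p = 0.020). In transit amplifying cells Cdkn2b was at 8.12, 8.77 and 8.29 in ENR and 7.31, 3.37 and 3.90 in Hyper libraries, with log2 -0.78 (SE 0.30, adjusted p = 0.052), or -1.2 at 0.0020 without Hyper replicate 1. It also passed there without -VE replicate 1 or 2 in the shared fit (adjusted p = 0.043 and 0.044), and with the culture series as a block (-0.87, adjusted p = 0.012). Cdkn2b fell in goblet cells by 1.09 on the log2 scale (SE 0.30, adjusted p = 0.017) and rose in enteroendocrine cells by log2 1.18 (SE 0.31, adjusted p = 0.025), where Hyper libraries were at 38.0, 78.1 and 46.7 TMM CPM against 26, 17.3 and 29.9 in ENR. Relative to transit amplifying cells, the effect was higher by 1.39 in stem cells (SE 0.18, interaction adjusted p = 3.4e-05) and by 2.01 in enteroendocrine cells (SE 0.41, adjusted p = 0.0023). Against -VE the stem difference was 1.00 (SE 0.18, adjusted p = 0.00072), and the enteroendocrine difference did not pass (1.35, SE 0.45, adjusted p = 0.10). The interaction test was added after the data were seen; the share of all genes that passed it was 15.1% for stem, 13.2% for goblet and 13.0% for enteroendocrine against transit amplifying cells in the comparison with ENR, and 11.7%, 5.95% and 5.1% in the comparison with -VE.

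Ccnd2 also differed between classes. In stem cells it was at 581, 579 and 633 TMM CPM in ENR and 589, 696 and 842 in Hyper libraries, with log2 0.25 against ENR (SE 0.13, edgeR adjusted p = 0.15), which passed without Hyper replicate 1 (0.39, adjusted p = 0.018), and 0.68 against -VE (SE 0.15, adjusted p = 0.0053), which missed without -VE replicate 2 (0.50, adjusted p = 0.069). In transit amplifying cells Ccnd2 fell by 0.32 on the log2 scale against ENR (SE 0.11, adjusted p = 0.032), but missed the threshold without ENR replicate 2 or 3 or Hyper replicate 1 or 2, with adjusted p values of 0.080 to 0.12. Ccnd2 rose in goblet cells by 0.76 (SE 0.15, adjusted p = 0.0021) and in enteroendocrine cells by 1.62 (SE 0.20, adjusted p = 0.00050), from 120, 208 and 162 to 469, 451 and 590 TMM CPM. It rose against -VE in goblet cells by 0.85 (SE 0.16, adjusted p = 0.0035) and in enteroendocrine cells by 1.2 (SE 0.23, adjusted p = 0.011). Relative to transit amplifying cells, the effect of Hyper against ENR was higher by 0.57 in stem (SE 0.055, interaction adjusted p = 8.6e-07), 1.10 in goblet (SE 0.093, adjusted p = 6.2e-07) and 1.95 in enteroendocrine cells (SE 0.19, adjusted p = 7.0e-07). Against -VE the differences were 0.48 in stem (SE 0.060, adjusted p = 1.7e-05), 0.67 in goblet (SE 0.10, adjusted p = 0.00070) and 1.03 in enteroendocrine cells (SE 0.21, adjusted p = 0.0045).

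Ccnd1 fell against ENR in stem cells (log2 -0.54, SE 0.08, edgeR adjusted p = 0.00047) and in transit amplifying cells (-0.69, SE 0.08, adjusted p = 0.00013), and against -VE by 0.33 and 0.52 (SE 0.09 each, adjusted p = 0.012 and 0.0015), the first missing the threshold without -VE replicate 2 (adjusted p = 0.13) or Hyper replicate 2 (0.056). In enteroendocrine cells Ccnd1 was instead higher, at 15.8 ± 13.4 TMM CPM in ENR (SD, n = 3, 66 UMIs) and 33.8 ± 2.52 in Hyper libraries (n = 3). That difference did not pass. The Ccnd1 effect against ENR was higher than in transit amplifying cells by 0.50 in goblet cells (SE 0.11, interaction adjusted p = 0.0059) and by 1.70 in enteroendocrine cells (SE 0.40, adjusted p = 0.0073). The corresponding 0.15 in stem cells (SE 0.046, adjusted p = 0.029) passed in 2 of 8 fits that left out a library. Against -VE neither the goblet (0.27, SE 0.12, adjusted p = 0.21) nor the enteroendocrine difference (0.42, SE 0.38, adjusted p = 0.69) passed. The stem difference against -VE was 0.19 (SE 0.048, adjusted p = 0.012), but missed the threshold without Hyper replicate 2 (0.16, adjusted p = 0.098). It was 0.20 without -VE replicate 1 and 0.15 without -VE replicate 2. These fits hold 1 -VE library, so passing the threshold is not read from them. Ccnd1 was thus lower in Hyper stem cells than in ENR stem cells, where the Ccnd2 difference did not pass.

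Trp53 fell in stem cells by 0.46 on the log2 scale against ENR (SE 0.07, edgeR adjusted p = 0.00060) and by 0.38 against -VE (SE 0.08, adjusted p = 0.0035), and in transit amplifying cells by 0.30 (SE 0.05, adjusted p = 0.0017) and 0.28 (SE 0.06, adjusted p = 0.0060). In enteroendocrine cells it fell by 0.64 against -VE (SE 0.15, adjusted p = 0.031, or 0.063 with the culture series as a block). The stem effect against ENR was lower than that of transit amplifying cells (-0.14, SE 0.039, interaction adjusted p = 0.020), in 6 of 8 fits that left out a library, and against -VE the difference did not pass (-0.098, SE 0.041, adjusted p = 0.14). Mdm2 rose in stem cells by 0.29 against ENR (SE 0.09, adjusted p = 0.022) and 0.26 against -VE (SE 0.09, adjusted p = 0.045), and in transit amplifying cells by 0.28 (SE 0.07, adjusted p = 0.0085) and 0.27 (SE 0.08, adjusted p = 0.019). In stem cells Mdm2 missed the threshold against ENR without ENR replicate 2 (adjusted p = 0.077) or Hyper replicate 3 (0.057), and against -VE without any of 5 libraries (0.061 to 0.28). In transit amplifying cells it missed against -VE without -VE replicate 2 (0.16).

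Cdkn1b fell in stem cells (log2 -0.37, SE 0.09, edgeR adjusted p = 0.0079), transit amplifying cells (-0.39, SE 0.07, adjusted p = 0.0024) and enteroendocrine cells (-0.67, SE 0.20, adjusted p = 0.042) of Hyper- against ENR-organoids, and was at -0.32 in goblet cells (adjusted p = 0.058, or 0.049 with the culture series as a block). Cdkn2c rose in transit amplifying cells by 0.43 against ENR (SE 0.07, adjusted p = 0.0013) and by 0.75 against -VE (SE 0.08, adjusted p = 0.00020). The Cdkn2c effect against -VE was smaller in stem than in transit amplifying cells (difference -0.44, SE 0.084, interaction adjusted p = 0.0015, and -0.51 to -0.40 in the fits that left out a library). Against ENR that difference did not pass (-0.23, SE 0.095, adjusted p = 0.12).

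**Figure D3:**
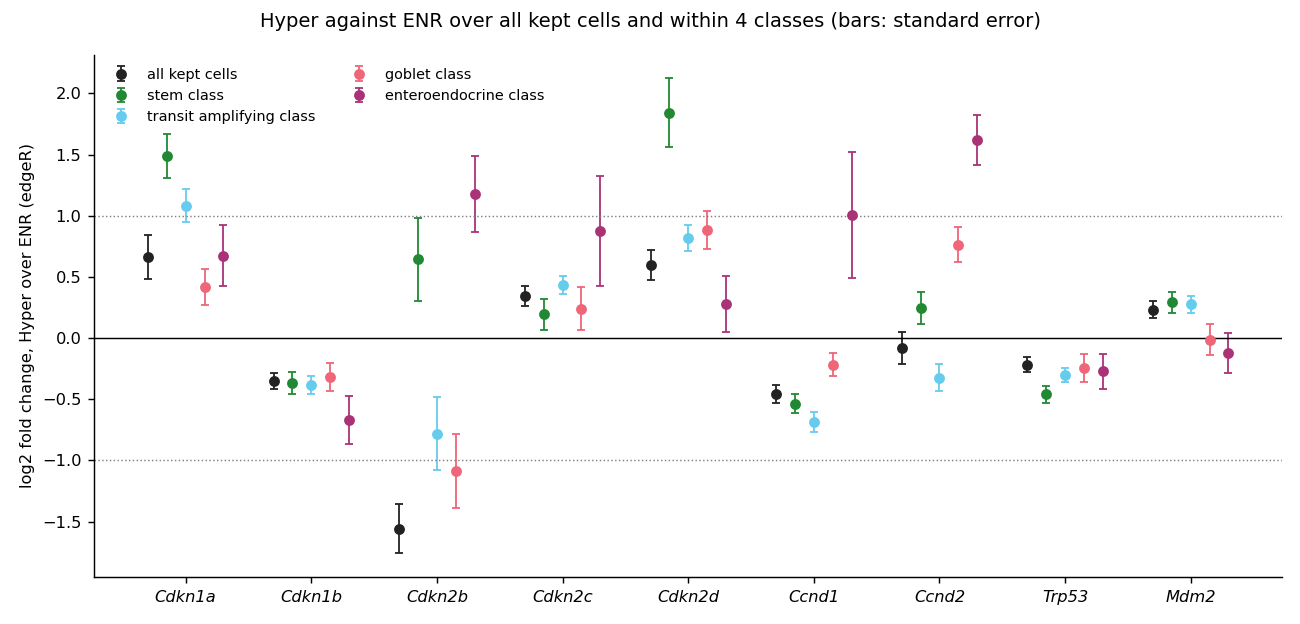
The vertical axis gives the edgeR log2 fold change of Hyper- against ENR-organoids with its standard error, for all kept cells and 4 classes in colour, with dotted lines at 2-fold, for the members other than Cdkn2a. Cdkn2b, Ccnd1 and Ccnd2 lie on both sides of 0 depending on the class.

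The classes themselves differed in the level of the members, given here without a test because the classes were made by clustering the same cells, and as plain CPM, relative to all UMIs of the same cells. In ENR-organoids Cdkn1a was at 689 ± 78.7 CPM in enteroendocrine cells (SD, n = 3 libraries), 153 ± 9.82 in enterocytes, 144 ± 18.6 in goblet cells, 54.0 ± 2.88 in enterocyte progenitors, 51.2 ± 23.5 in Paneth cells, 29.7 ± 2.95 in stem cells and 25.6 ± 0.358 in transit amplifying cells. Enterocytes and goblet cells lay within each other's spread, as did enterocyte progenitors and Paneth cells. Hyper-organoids kept enteroendocrine cells at the top of the classes with at least 20 cells in 3 libraries, at 1046 ± 200.

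Cdkn2b had its highest ENR level in enterocytes, at 144 ± 19.7 CPM (SD, n = 3), followed by goblet cells at 40.8 ± 7.02, enterocyte progenitors at 28 ± 1.82, enteroendocrine cells at 25 ± 5.83, Paneth cells at 14.5 ± 4.83, transit amplifying cells at 8.17 ± 0.406 and stem cells at 5.36 ± 1.62. Enterocyte progenitors and enteroendocrine cells overlapped. ENR libraries held 214, 340 and 292 enterocytes and 486, 635 and 809 enterocyte progenitors, against 7, 58 and 21 and 3, 3 and 2 in Hyper libraries, so both classes were scarce in the Hyper sums. In the 2 Hyper libraries with at least 20 enterocytes, Cdkn2b was at 186 ± 47.9 CPM in them.

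Ccnd1 was highest in ENR stem cells (181 ± 9.88 CPM, n = 3), with enterocyte progenitors (156 ± 3.27) and transit amplifying cells (150 ± 9.89) within each other's spread, then goblet cells (98.2 ± 9.83), enterocytes (61.5 ± 7.55), Paneth cells (54.0 ± 20.7) and enteroendocrine cells (16.5 ± 14.4). Ccnd2 was at 703 ± 11.8 CPM in ENR enterocyte progenitors, 580 ± 15.4 in stem cells, 560 ± 47.0 in transit amplifying cells, 523 ± 86.7 in enterocytes, 445 ± 42.3 in goblet cells, 194 ± 42.4 in Paneth cells and 168 ± 46.1 in enteroendocrine cells. Its stem, transit amplifying and enterocyte levels did not differ beyond their spread. In Hyper-organoids, Ccnd2 was at 1557 CPM in the revival stem cells of 1 library, 811 ± 136 in goblet cells (n = 3), 742 ± 121 in stem cells (n = 3), 574 ± 141 in enterocytes (n = 2), 493 ± 71.2 in enteroendocrine cells (n = 3) and 483 ± 35.5 in transit amplifying cells (n = 3). Neighbours in this order from goblet cells downward lay within each other's spread.

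Among the other INK4 and CIP/KIP genes, Cdkn2d was at 24.4 ± 5.16 CPM in ENR enteroendocrine cells, 13.2 ± 0.910 in transit amplifying cells and 1.17 ± 0.447 in stem cells (n = 3). Cdkn2c was highest in ENR transit amplifying cells (19.2 ± 1.83 CPM). Its lowest mean was in enterocytes (3.48 ± 0.643), within the spread of enteroendocrine (5.92 ± 4.04) and Paneth cells (6.13 ± 3.83). Cdkn1b was highest in ENR enteroendocrine cells (119 ± 31.7 CPM). Trp53 was at 169 ± 11.1 CPM in ENR transit amplifying and 165 ± 9.13 in stem cells, which overlapped, and at 53.0 ± 6.49 in enterocytes, whereas Mdm2 was at 62.4 ± 8.10 in enteroendocrine and 18.6 ± 0.308 in transit amplifying cells.

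**Figure D4:**
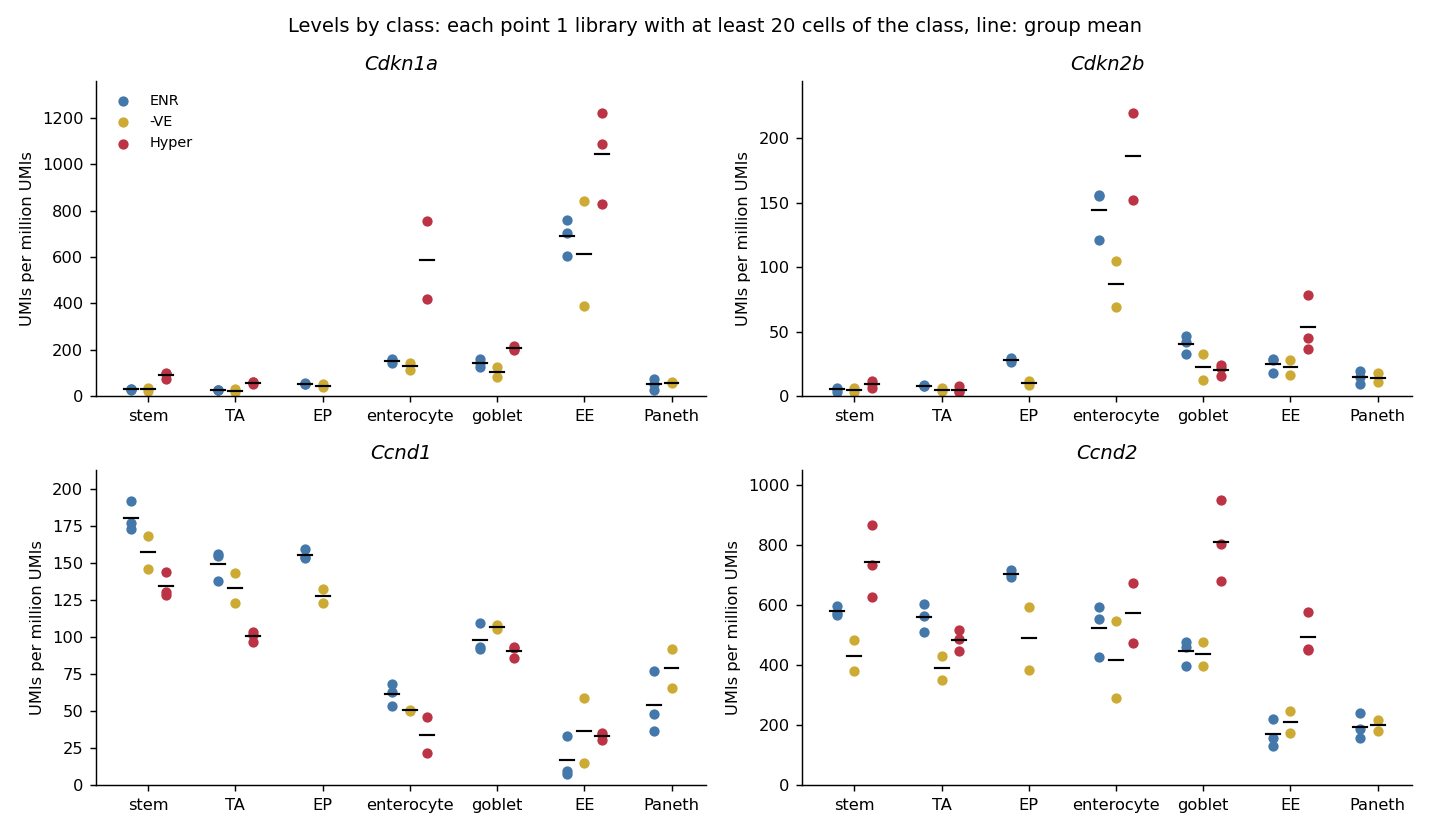
Each panel plots CPM, relative to all UMIs of the same cells, on a linear axis from 0, by class (TA, transit amplifying; EP, enterocyte progenitor; EE, enteroendocrine), with 1 point per library of at least 20 cells of the class and a line at the group mean. Cdkn1a peaks in enteroendocrine cells and Cdkn2b in enterocytes, while Ccnd1 is lowest in enteroendocrine cells of ENR libraries.

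Stem and transit amplifying cells were then split by whether they held an Mki67 UMI, a marker of cycling cells, with both sums of a library compared within that library (8 libraries). Between 73.2% and 90.4% of these cells held an Mki67 UMI. The split also followed class. Without an Mki67 UMI, stem cells were 427 of 467, 677 of 712 and 400 of 459 cells in Hyper libraries. In ENR libraries they were 109 of 184, 108 of 130 and 99 of 146. With one, they were 699 of 2065, 804 of 2422 and 474 of 1256 in Hyper libraries. In ENR libraries these were 213 of 1093, 209 of 1223 and 130 of 856. Class was held fixed only in the fit of stem cells alone. All other values of this split are for both classes together, and the part of class in them was not tested. Cdkn2d and Cdkn2c were higher in cells with Mki67 and Cdkn1a, Cdkn2b, the D cyclins and Mdm2 lower: 9 of 9 members tested passed (50.1% of all genes tested) and 2 were called (3.26%). Cdkn2d was at 13.8 ± 4.78 CPM with and 3.06 ± 1.54 without an Mki67 UMI (SD, n = 8), a log2 difference of 2.04 (SE 0.08, edgeR adjusted p = 1.5e-11), higher in 8 of 8 libraries. Cdkn2c was at 18.9 ± 3.99 and 8.54 ± 2.70 CPM, a difference of 1.05 (SE 0.06, adjusted p = 1.7e-09), in 8 of 8. Both were smaller in stem cells alone, where Cdkn2d was at 0.15 (adjusted p = 0.39) and Cdkn2c at 0.23 (adjusted p = 0.037). In that fit 6 of 9 members passed and 0 were called, against 3937 and 143 of the 11415 genes tested. At an equal depth of 10000 UMIs per cell they were 1.46 and 0.64.

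Cdkn1b was higher with Mki67 in 8 of 8 libraries, at 40.5 ± 5.44 against 26 ± 3.33 CPM (log2 0.58, SE 0.04, edgeR adjusted p = 1.5e-08), and Trp53 likewise at 158 ± 14.2 against 140 ± 18.0 CPM (0.15, SE 0.03, adjusted p = 0.00035). Cdkn1a was lower with Mki67 in all 8 libraries (-0.54, SE 0.08, adjusted p = 4.4e-05), from 26.1 ± 0.957 with and 30.3 ± 2.57 without in ENR (n = 3) and 64.6 ± 6.03 and 108 ± 24.5 in Hyper libraries (n = 3). Cdkn2b was also lower in all 8 (-0.63, SE 0.11, adjusted p = 0.00014), with 6.09 ± 2.37 and 10.6 ± 3.5 CPM in Hyper libraries. Ccnd2 was lower in 7 of 8 (-0.35, SE 0.08, adjusted p = 0.0024), with 537 ± 49.4 and 858 ± 177 CPM in Hyper libraries and -0.70 when these alone were fitted. Stem cells of Hyper libraries held more Ccnd2 (742 ± 121 CPM) than transit amplifying cells (483 ± 35.5), and the part of class was not tested. Ccnd1 (-0.21, SE 0.04, adjusted p = 0.00067) and Mdm2 (-0.14, SE 0.05, adjusted p = 0.019) were lower in 7 of 8, with Ccnd1 at 0.017 in stem cells alone and Mdm2 missing the threshold without Hyper replicate 3 (-0.10, adjusted p = 0.079). Trp53 and Mdm2 missed it at equal depth (0.040 and -0.062, adjusted p = 0.28 and 0.42). Cdkn2a did not pass the filter in this fit. In Hyper-organoids alone it was at -0.57 (SE 0.11, adjusted p = 0.0011), although its CPM was higher with Mki67 in 1 of the 3 libraries.

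**Figure D5:**
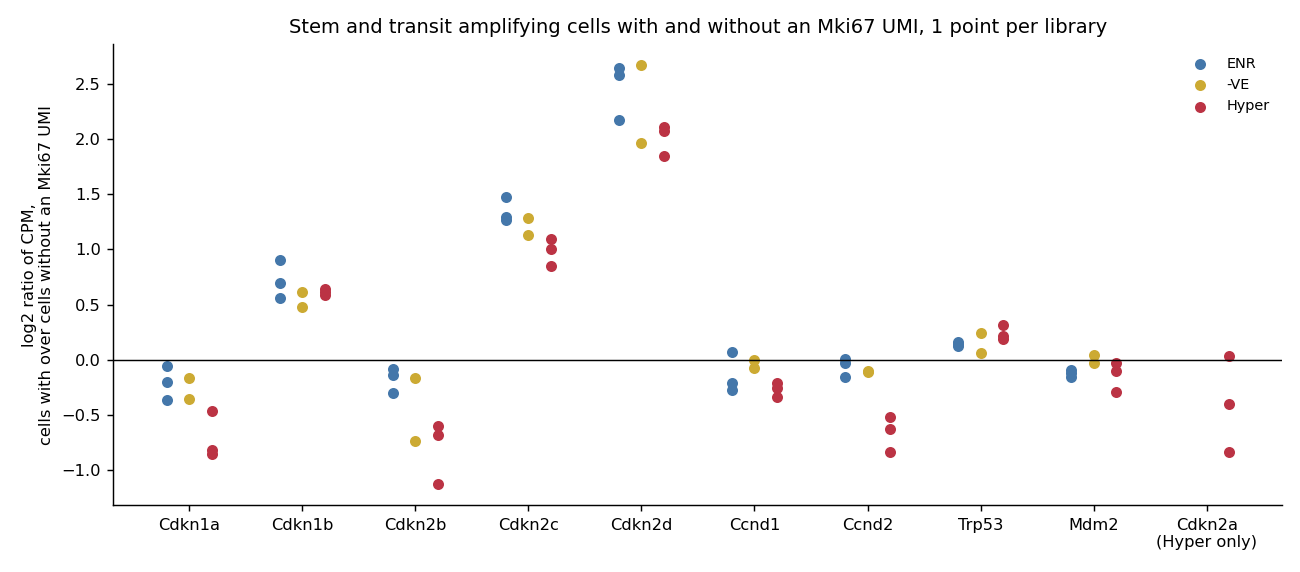
The vertical axis gives the log2 ratio of CPM in stem and transit amplifying cells with over those without an Mki67 UMI, 1 point per library, for 9 genes in 8 libraries and for Cdkn2a in the Hyper libraries. Cdkn2d, Cdkn2c and Cdkn1b lie above 0 and Cdkn1a and Cdkn2b below 0 in all libraries.

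The other genes of these pathways were counted in lists, over all kept cells and adjusted over all genes tested. In Hyper against ENR, 2913 of all 16037 genes tested were called up and 762 down (22.9% in all), and 4734 and 4377 passed the adjusted p (56.8% in all). Of 30 p53 targets, 6 were called up and 1 down in Hyper against ENR, 17 and 3 passed the adjusted p, and the median log2 difference was 0.37, beside -0.0073 over all genes. The 7 calls are about the share called over all genes. Abcb1b, a drug efflux pump (log2 3.65, SE 0.32, edgeR adjusted p = 3.8e-05), Ak1, an adenylate kinase (3.37, SE 0.19, adjusted p = 5.2e-06), and Phlda3, an inhibitor of AKT (2.5, SE 0.13, adjusted p = 4.0e-06), rose most, and Plk3, a stress-responsive kinase, fell by 1.09 (SE 0.14, adjusted p = 0.00028). Against -VE, 6 p53 targets were called up and 0 down, with a median of 0.34, and in -VE against ENR 1 was called up (Abcb1b) and 0 down, with a median of 0.02. These shares are near the 18.6% and 2.55% called over all genes. Of 13 of 15 regulators and kin of p53 that were tested, 0 were called in Hyper against ENR by edgeR or DESeq2, 9 passed the unadjusted and 9 the adjusted p (2 up, 7 down), with a median of -0.18.

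Of 20 genes of the G1/S engine, 0 were called up and 1 down, E2f2, an activator of S phase genes (-1.22, SE 0.06, edgeR adjusted p = 3.0e-06), while 7 and 6 passed, with a median of 0.02. Of 16 cycling markers, 0 were called by edgeR or DESeq2, 7 passed the unadjusted p, and 0 and 5 passed the adjusted p up and down, with a median of -0.15. Of 13 Polycomb proteins, 2 were called up, Bmi1, a PRC1 subunit best known for silencing Cdkn2a (1.24, SE 0.13, adjusted p = 9.3e-05), and Cbx2, which reads H3K27me3 (1.10, SE 0.13, adjusted p = 0.00022), and 0 down, with 5 and 4 past the adjusted p. The shares called in the G1/S, cycling and Polycomb lists were below that over all genes. Of 15 genes of the dissociation stress response, 0 were called up and 1 down, Zfp36 (-1.13, SE 0.19, adjusted p = 0.0012). Against -VE, 3 of the stress genes were called up, Atf3 (1.76), Socs3 (1.14) and Egr1 (1.07), and 5 passed, with a list median of 0.49. Over all genes 18.6% were called and 47.6% passed, so the first count is near that share and the second below it. In -VE against ENR 2 stress genes were called down, Atf3 (-1.49) and Zfp36 (-1.04), and 3 passed, with a median of -0.64. There 2.55% of all genes were called and 7.88% passed. Cdkn1a was called against -VE as well, and the part of the stress genes in its difference was not tested. These genes were named after their values were seen. The related inhibitors and the D cyclin outside the members are Cdkn1c, Cdkn3 and Ccnd3. Against -VE, 1 of these 3 was called up by edgeR and DESeq2 and 2 passed, where 18.6% and 47.6% of all genes did. In Hyper against ENR, 0 of 3 were called by edgeR or DESeq2, and 2 passed both the unadjusted and the adjusted p. Of the 3 neighbours of Cdkn2a, Cdkn2b fell as given above, Mtap, an enzyme of methionine salvage, passed with a rise of log2 0.61 (SE 0.07, adjusted p = 0.00020), and Dmrta1 held 12, 39 and 14 UMIs in the Hyper libraries and 0 in each of the 5 other organoid libraries, which allows up to 3 in each. Dmrta1 passed the filter on low counts through the Hyper libraries alone, so neither its call nor its fold is read here.

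In the colonic crypts each condition is 1 library, so no difference has a replicate check and no test was made. Values are CPM with exact 95% Poisson intervals for counting error. Cdkn1a was the highest member in both libraries, at 275 (268 to 283) in normal and 175 (170 to 180) in DSS crypts. Ccnd2 was at 172 (166 to 178) and 91.6 (88.4 to 95), Ccnd1 at 95.1 (90.9 to 99.5) and 75.3 (72.4 to 78.4), and Mdm2 at 36.9 (34.3 to 39.7) and 28.6 (26.8 to 30.5), each with a lower value in the DSS library. With cells thinned to 5000 UMIs the intervals stayed apart for Cdkn1a and Ccnd2 only. Ccnd1 was then at 74.6 (66.2 to 83.7) and 72.3 (65.8 to 79.2), and over all barcodes at 61.2 and 60.2. Mdm2 was at 38.7 (32.8 to 45.4) and 32.1 (27.8 to 36.8) after thinning. Cdkn2b was at 49.4 (46.4 to 52.6) and 56.3 (53.8 to 59.0), and Cdkn2d at 10.6 (9.17 to 12.1) and 13.2 (12 to 14.6). Cdkn2a was represented by 1 and 4 UMIs, too few for a ratio. Ccnd2 exceeded Ccnd1 1.81-fold and 1.22-fold.

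The colonic libraries also differed in their clusters: cluster 3 held 274 normal and 1 DSS cells, cluster 12 held 93 and 1, and cluster 14 held 77 and 1. In clusters with at least 20 cells of each library, Cdkn1a was not uniformly lower after DSS, at 204 CPM in normal and 242 in DSS cells of cluster 1, 72.1 and 86.0 in cluster 5, 386 and 341 in cluster 6 and 146 and 55.7 in cluster 13. In clusters 0 and 11, which were rich in the leukocyte gene Ptprc, Cdkn1a was at 50.0 and 30.4 and at 113 and 70.2. Its lower sum cannot be told apart from this difference in clusters. The colonic sums held other cells: clusters rich in the leukocyte gene Ptprc made up 219 and 445 cells, in which Cdkn2d was at 90.5 and 93.7 CPM. Without these clusters and without Ptprc cells (901 and 1457 cells left), Cdkn2d was at 7.02 (5.87 to 8.33) and 7.95 (6.97 to 9.03), intervals that overlap, and Cdkn1a at 286 and 183. In the cluster that the annotation names stem (102 and 168 cells), Cdkn2b was at 2.44 (0.895 to 5.31) in normal and 19.6 (15.2 to 24.8) in DSS crypts, Ccnd2 at 352 (329 to 377) and 89.0 (79.3 to 99.6), Ccnd1 at 237 (218 to 257) and 140 (128 to 153), Trp53 at 139 (125 to 155) and 97.2 (87.0 to 108), and Cdkn1a at 85.0 (73.8 to 97.3) and 114 (103 to 126). The cyclins and Trp53 were thus lower and both inhibitors higher in that cluster of the DSS library. Over all kept cells Trp53 was not lower after DSS, at 47.9 (44.9 to 51.1) in normal and 53.3 (50.8 to 55.9) in DSS crypts, intervals that overlap. Over all barcodes it was at 31.2 (29.4 to 33.1) and 42.4 (40.5 to 44.3), intervals that do not. By cluster, Trp53 was at 61.5 and 71.3 in cluster 5, 126 and 137 in cluster 13 and 67.9 and 71.5 in cluster 0. It was at 31.73 and 31.35 in cluster 1, 10.8 and 8.62 in cluster 6 (16 and 29 UMIs) and 53.3 and 37.8 in cluster 11 (9 and 7 UMIs). Among these clusters Ccnd2 was higher after DSS in cluster 5 alone, at 160 and 181. Ccnd2 was at 155 and 135 in cluster 0, 137 and 22.1 in cluster 1 and 31.6 and 6.84 in cluster 6. In clusters 11 and 13 it was at 320 and 194 and at 262 and 106.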

How the data were processed

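Mouse organoid and colonic crypt cells were profiled with droplet 3' single-cell RNA-seq. The authors aligned reads to mm10 with Cell Ranger 3.0.0 and annotated cells with Seurat 3.1.4, per the labels' processing notes, while the file headers name another Cell Ranger version. The deposited values are raw UMI counts per gene and cell, not normalized, with a table of kept cells and their classes. For the 10 members, 987070 UMIs of that table were compared with the library matrices and 0 entries differed. The methods state at least 1500 genes per cell, but kept cells go lower, so the authors' kept cells were used as deposited. Doublets were not removed here.

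UMIs were summed per library, or per library and class with at least 20 cells, and fitted with edgeR 4.0.16 (R 4.3.3; TMM, filterByExpr, glmQLFit and glmQLFTest), all 8 organoid libraries in 1 fit. Adjusted p is Benjamini-Hochberg over all genes tested, and calls required both 0.05 for it and a change of 2-fold or more. The standard error is the log2 fold change divided by the square root of F. The fits were tested on simulated counts. Exact binomial and Poisson intervals (95%, scipy 1.17.1) cover counting error only. Alternatives were DESeq2 1.42.0, other scaling, filters, cell sets and thinning, equal class weights, and leaving out each library. Libraries were left out over all kept cells, in stem and transit amplifying cells and in the Mki67 split. This was not done within goblet or enteroendocrine cells. The unscaled fit, the fits of Hyper- or ENR-organoids alone and the interaction of class and group (library as block) were chosen after seeing the data.

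The members and lists were chosen with earlier results of these data known. Named are the 10 members, for each list the 3 largest called rises and falls in Hyper against ENR, and for 4 members the 3 genes most alike in pattern. Libraries of the same culture series share a number. Their deviations from the group means correlated at 0.19, 0.17 and 0.44 for ENR with Hyper, so the numbers pair these groups. The correlations were 0.16 and 0.062 for ENR with -VE and 0.14 and 0.12 for -VE with Hyper.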

Additional observations from a re-analysis of the deposited data

Results flagged for a closer look

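For 12 values, the effect of Hyper- against ENR-organoids differed between a class and transit amplifying cells by a test of the difference itself (edgeR interaction, adjusted over all genes, n = 8 libraries with -VE included). In stem cells the difference was 1.39 for Cdkn2b, 1.00 for Cdkn2d, 0.567 for Ccnd2, 0.399 for Cdkn1a, 0.154 for Ccnd1 and -0.139 for Trp53, on the log2 scale. As libraries were left out in turn, Cdkn2b stayed between 1.22 and 1.53, Cdkn2d between 0.768 and 1.13, Ccnd2 between 0.488 and 0.592 and Cdkn1a between 0.333 and 0.432, past the threshold in 8 of 8 fits, while Ccnd1 passed in 2 of 8 and Trp53 in 6 of 8. In goblet cells the difference was 1.10 for Ccnd2, 0.5 for Ccnd1 and -0.621 for Cdkn1a. In enteroendocrine cells it was 2.01 for Cdkn2b, 1.95 for Ccnd2 and 1.70 for Ccnd1. Leaving out libraries was done for the stem comparison only. Against -VE, 7 differences passed the same test. In 6 the difference against ENR passed too, those of Cdkn2b (0.997), Ccnd2 (0.483), Cdkn1a (0.352) and Ccnd1 (0.192) in stem cells and of Ccnd2 in goblet (0.672) and enteroendocrine cells (1.03). Of these, Ccnd1 in stem cells missed the threshold without Hyper replicate 2 (0.16, adjusted p = 0.098). Without -VE replicate 1 and 2 in turn, Ccnd1 was at 0.20 and 0.15 and Cdkn1a at 0.39 and 0.29 in stem cells. These fits hold 1 -VE library, so only their effect sizes are given, and passing the threshold is not read from them. Cdkn2c in stem cells passed against -VE alone (-0.438). The other 6 of the 12 differences against ENR did not pass against -VE. They were Cdkn2d (-0.16, opposite in sign) and Trp53 (-0.098) in stem cells, Ccnd1 (0.27) and Cdkn1a (-0.17) in goblet cells, and Cdkn2b (1.35) and Ccnd1 (0.42) in enteroendocrine cells.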

How the results depend on the processing

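Over all kept cells, Cdkn2a kept its direction and passed in Hyper against ENR in all alternatives with a test, with log2 values of 5.02 to 6.14. The number of members called in Hyper against -VE over all cells was 2, and 1 with the culture series as a replicate block (Cdkn1a at 0.97, adjusted p = 0.0053, under 2-fold), with all barcodes (0.99) and after thinning (0.91), and 1 to 2 with libraries left out. In -VE against ENR it was 0 to 1, and in transit amplifying cells of Hyper against -VE 1 to 3 (Cdkn2a counted), with libraries left out. With 1 -VE library left, it is assumed to vary like the other groups. Without a filter on low counts, 1 member (Ccnd1, log2 1.22, SE 0.26, adjusted p = 0.00034) was called in enteroendocrine cells of -VE against ENR. For the Mki67 split, 1 was called after thinning, 0 in stem cells alone and 1 in Hyper-organoids alone. After thinning the colonic cells to 5000 UMIs, the exact intervals were apart for 2 members (Cdkn1a and Ccnd2) instead of 6, and Cdkn2c turned to 0.15. With the culture series as a block, Cdkn2c also passed in stem cells of Hyper against -VE (0.35, adjusted p = 0.049). In goblet cells of -VE against ENR, Cdkn2b (-0.94, adjusted p = 0.017) and Cdkn1a (-0.53, adjusted p = 0.034) then passed, all of these under 2-fold. Beside these and the values given with the results, the block changed no call of a member.

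Signs turned with equal class weights for Cdkn2b in Hyper against ENR (0.16) and -VE (0.69), Ccnd2 in Hyper against ENR (0.53) and Cdkn2a in -VE against ENR (0.40). Ccnd2 in Hyper against ENR was also positive at 0.032 with a filter of 10 CPM in 2 libraries, 0.043 without TMM scaling and 0.032 after thinning, and ranged from -0.21 (without Hyper replicate 3) to 0.016 (without Hyper replicate 1) with libraries left out. Cdkn2b in Hyper against -VE ranged from -0.49 (without -VE replicate 2) to 0.30 (without -VE replicate 1), and Ccnd1 in the Mki67 split was 0.017 in stem cells alone. The cause was not tested in these cases. Leaving out TMM scaling moved the median of all genes from -0.0073 to 0.12 in Hyper against ENR and from 0.014 to 0.15 in Hyper against -VE. Trp53 then missed the threshold in both (adjusted p = 0.31 and 0.14), as did Ccnd1 in the second (0.050). Of the other single-gene values, 999 kept direction and side, 68 lost and 16 gained the threshold. A further 13 kept their sign but moved in size past their spread or counting error. With equal class weights these include Cdkn2b in -VE against ENR (-0.54) and Mdm2 in Hyper against ENR (0.066). Depth limits Cdkn2a outside Hyper-organoids, where 83 ENR and 45 -VE UMIs carry it.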

Other observations

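Cdkn1c (p57), the CIP/KIP inhibitor outside the members, moved in opposite directions between classes. It rose by log2 1.62 in stem cells (SE 0.15, edgeR adjusted p = 3.0e-05) and by 2.01 in transit amplifying cells (SE 0.08, adjusted p = 8.9e-07) of Hyper- against ENR-organoids, and fell by 2.15 in enteroendocrine cells (SE 0.18, adjusted p = 4.9e-05). The difference between the enteroendocrine and transit amplifying effects of Cdkn1c was -4.18 (SE 0.18, interaction adjusted p = 1.7e-11), and -4.03 against -VE (SE 0.20, adjusted p = 1.7e-10). This gene was singled out after its values were seen.

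Over 50 sums of a library and class with at least 20 cells, and among 9765 genes with a mean of at least 5 CPM, the patterns most like that of Cdkn1a by Pearson correlation of log2(CPM + 1) were those of Atp6v0d1 (0.958), Stxbp2 (0.949) and Ifi27 (0.945). For Cdkn2a they were Zfhx4 (0.885), Hspb1 (0.868) and Arxes2 (0.866), for Ccnd1 Ifrd2 (0.875), Ehf (0.870) and Itpripl1 (0.868), and for Ccnd2 Ripk3 (0.839), Oaf (0.832) and Rpl13a (0.805). Sums of the same library share its depth and preparation, so these are descriptions without a test.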
